A study of Mus musculus with 10 samples.

Results

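Integrins, laminins and the other core proteins of the basement membrane were followed in the left ventricle (LV) of mice with neonatal pressure overload. Genes encoding an integrin alpha or beta chain, a laminin alpha, beta or gamma chain, a nidogen, perlecan (Hspg2) or agrin (Agrn) were taken by gene symbol. The symbol rule holds no measured values, but this family was chosen with earlier results of the data known. Described here are 40 genes of the family among the 55401 genes measured, namely 26 integrin chains, 10 laminin chains and 4 nidogen and proteoglycan genes. Of the 40, 24 had a mean FPKM of at least 1 over the 10 libraries and entered the test, together with 11867 genes in all, and 16 lay below that level. FPKM counts sequenced fragments of a gene after scaling for its transcript length and for the depth of the library.

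The libraries came from wild-type (WT) mice on a C57BL/6 background, 4 weeks old, 5 of which had undergone constriction of the ascending aorta as newborns (nAAC) and 5 a sham operation. Pups of both sexes were distributed between the groups at random and raised with their mothers. The groups shared genotype, age and housing. The sex of each library is not given here, so its balance between the groups is not known. RNA was taken from LV tissue, with 1 library per mouse. The comparison asks which matrix receptors and basement membrane chains differ in the LV at 4 weeks of pressure overload, and whether the balance between chains of the same kind differs.

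Integrins are pairs of an alpha and a beta chain that span the cell membrane and link the matrix outside to the actin skeleton inside, and in the heart they carry force between cardiomyocytes, fibroblasts and their surroundings. Laminins are cross-shaped trimers of an alpha, a beta and a gamma chain, and nidogens, perlecan and agrin tie them to the collagen IV network in the sheet that wraps each cardiomyocyte and capillary. Which alpha chain pairs with which beta chain sets the ligand of an integrin, and which laminin alpha chain is used sets where a laminin is found.

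Cardiomyocyte genes were abundant in every library, with a summed FPKM of 12 markers from 17662 to 27114 in nAAC and from 18953 to 34028 in sham mice. Estimated depth ran from 4.86 to 6.82 gigabases. Of all genes tested, more were higher than lower in nAAC, with a median log2 FC of 0.22. After each library was rescaled by the median ratio to a common reference this median was 0.00, and the share of calls that were higher fell from 85.5% to 52.2%. Sham replicate 4 stood apart. The deviation of its genes from the group mean fell with transcript length (Spearman rho of -0.66 across genes, which are not independent, against -0.02 to 0.47 in the other sham mice), and it was the lowest sham mouse for 15 of the 24 tested members, whose longest transcripts had a median of 5706.5 bases against 3159 for all genes tested. The mitochondrial share of TPM was 32.8% to 39.9% in nAAC mice, 46.5% to 49.8% in sham replicates 1 to 3, and 33.7% and 38.3% in sham replicates 4 and 5, and its part in the results was not tested. Values after median-ratio scaling, without sham replicate 4 or with GC content and length trends removed are given beside results they change most. In tissue RNA, fewer cells of a type and less RNA per cell cannot be told apart.

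Among the 24 tested members, 11 rose in nAAC LV and 2 fell at an adjusted p below 0.05 (limma, adjusted over all genes tested), where 27.1% of all genes rose and 4.6% fell. Without nAAC replicate 4 the rising count was 7 of 23 members tested, against 19.9% of all genes. With the further requirement of a log2 FC beyond 1, the threshold of a differentially expressed gene (DEG), 4 members were DEGs up against a background of 5.01%, and 0 were DEGs down against 0.893%. The median log2 FC of the members was 0.45 against 0.22 for all genes, 0.20 against 0.00 after median-ratio scaling, and 0.31 against 0.24 without sham replicate 4. For 6 members the lowest nAAC mouse lay above the highest sham mouse, against 18.9% of all genes, and for 1 member the groups were separated the other way, against 3.46%. After median-ratio scaling 5 members rose and 2 fell, against 13.2% and 12.1% of all genes. The 5 were Itga9, Itga5, Itgb5, Hspg2 and Itga11, all among the 11 above, and they were also the members that rose with the level of Xist, an RNA of the inactive X chromosome, as a covariate. In these counts Itga11 passed the filter on low values through its nAAC level, and Itgb6 through its sham level. Without the filter 13 of the 40 members rose, against 11.6% of 29309 genes. These shares are not matched in level, since 24 of the 40 members but 11867 of the 29309 genes had a mean FPKM of at least 1.

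**Figure D1:**
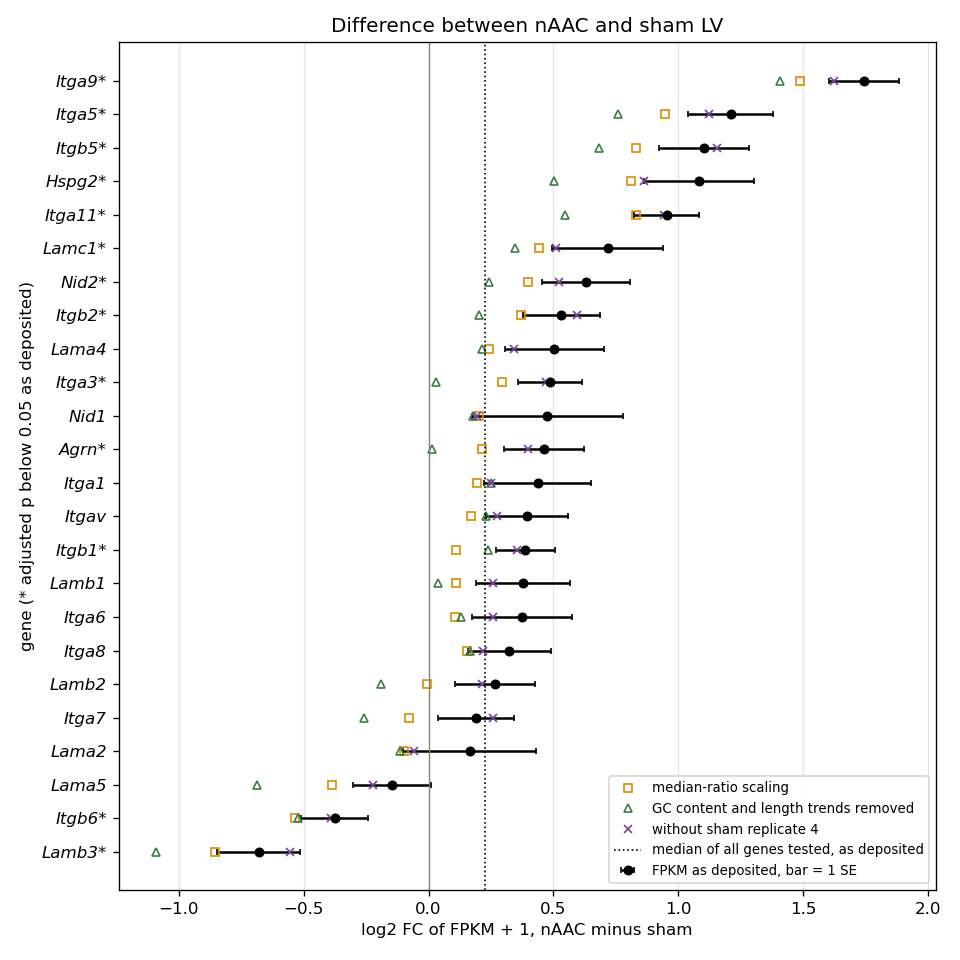
Difference between nAAC and sham LV for the 24 tested members, as log2 FC of FPKM + 1 on the x axis. Black points with bars of 1 SE are the values as deposited (n = 5 mice per group), open squares follow median-ratio scaling, triangles follow removal of GC content and length trends, crosses leave out sham replicate 4, and the dotted line is the median of all genes tested at 0.22. Itga9, Itga5, Itgb5, Hspg2, Itga11, Lamc1 and Nid2 stand to the right of that line under all 4 settings, and Lamb3, Itgb6 and Lama5 stand to the left of 0. The line is the median as deposited. The median of all genes was -0.0008 after median-ratio scaling and -0.019 with GC content and length trends removed.

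The upstream sequences of 4 members that rose together are shown because the members above differed in the same direction. They are the members with every nAAC mouse above every sham mouse, a log2 FC above 0.8 both as deposited and after median-ratio scaling, and a RefSeq transcription start near the start of the deposited gene (mouse GRCm38.p6). Each run holds the 250 bases before the start, 5′ to 3′ on the strand of the gene. Capitals mark GCGTG, the core of the site bound by the aryl hydrocarbon receptor (AHR), on either strand.
Hspg2, chr4:137468553-137468802, plus strand: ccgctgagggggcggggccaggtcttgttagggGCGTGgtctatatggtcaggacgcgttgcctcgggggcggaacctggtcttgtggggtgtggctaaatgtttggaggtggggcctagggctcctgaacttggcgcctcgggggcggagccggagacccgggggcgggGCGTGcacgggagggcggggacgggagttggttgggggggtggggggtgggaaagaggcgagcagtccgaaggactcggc
Itgb5, chr16:33829415-33829664, plus strand: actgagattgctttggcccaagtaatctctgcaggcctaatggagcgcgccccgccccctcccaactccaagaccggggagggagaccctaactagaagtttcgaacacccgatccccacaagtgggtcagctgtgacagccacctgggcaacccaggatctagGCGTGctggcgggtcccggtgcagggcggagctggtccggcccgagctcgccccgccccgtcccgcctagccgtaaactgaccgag
Itga5, chr15:103366792-103367041, minus strand: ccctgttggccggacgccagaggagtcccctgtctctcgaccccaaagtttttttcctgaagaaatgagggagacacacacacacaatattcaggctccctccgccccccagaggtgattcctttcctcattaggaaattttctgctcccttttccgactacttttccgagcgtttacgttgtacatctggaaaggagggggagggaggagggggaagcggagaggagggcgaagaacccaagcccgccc
Itga11, chr9:62677605-62677854, plus strand: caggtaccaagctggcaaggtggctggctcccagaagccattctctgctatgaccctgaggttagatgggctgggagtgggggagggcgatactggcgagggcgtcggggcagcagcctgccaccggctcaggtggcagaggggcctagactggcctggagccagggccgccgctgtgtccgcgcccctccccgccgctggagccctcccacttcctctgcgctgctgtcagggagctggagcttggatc

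Of these, Hspg2 held the AHR core at 2 places and Itgb5 at 1, and Itga5 and Itga11 held no copy in this window. Over the 15 tested members with a RefSeq start within 1000 bases of the deposited gene start, 4 held the core, and 28.2% of all 32851 promoter windows did. The AP-1 motif TGANTCA was in 0 of the 15 and in 6.75% of all windows, and the TEAD motif GGAATG was in 2 of the 15 and in 12.6% of all windows. Both strands were searched, and none of the 3 motifs contains another. The RefSeq table matched 26 of the 40 members by symbol. Its start for Itga9 lay 105002 bases inside the deposited gene, so no sequence is given for it.

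Of the 7 laminin chains tested, 1 rose and 1 fell. Lamb3, a beta chain known mainly from epithelial basement membranes, was lower in nAAC. Its FPKM was 1.11, 1.39, 1.23, 1.42 and 1.35 in nAAC and 2.40, 1.62, 2.20, 4.19 and 3.56 in sham mice, so that every nAAC mouse lay below every sham mouse. It was the only tested member with that separation, and sham replicates 4 and 5 were the highest. Its log2 FC was -0.68 ± 0.17 (SE; limma adjusted p = 0.00776), and it was -0.56 without sham replicate 4 (adjusted p = 0.0107). The deposited Lamb3 gene spans Hsd11b1 and G0s2 on the opposite strand, and the annotation gives 0 shared exon bases with either. Whether reads of these genes entered the Lamb3 value was not tested. Gm37691, a gene model on the same strand within Lamb3 and also with 0 shared exon bases, had a mean FPKM of 0.748 in nAAC and 1.57 in sham mice. G0s2 had a mean FPKM of 22.6 in nAAC and 23.4 in sham mice, and Hsd11b1 of 4.53 and 3.73. The RefSeq start for Lamb3 lay 94295 bases inside the deposited gene. Lamb3 FPKM was 6.40 times its depth-scaled coverage in every mouse, so its level against other chains is uncertain. Lama3, an alpha chain of epithelial laminins, was below the filter, at 0.284 to 0.653 in nAAC and 0.0504 to 0.272 in sham mice, and rose when the filter was lifted (limma adjusted p = 0.0339).

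Lamc1, the gamma chain of most laminins in muscle and vessel walls, was with Lamb2 the most abundant laminin gene by FPKM. It stood at 47.0, 43.5, 37.0, 63.2 and 52.9 FPKM in nAAC and at 27.0, 38.7, 34.6, 15.8 and 34.2 in sham mice. The groups overlapped in nAAC replicate 3 and sham replicate 2, and sham replicate 4 was the lowest. It rose by a log2 FC of 0.72 ± 0.22 (SE; limma adjusted p = 0.0261), 0.51 without sham replicate 4 (adjusted p = 0.0242) and 0.44 after median-ratio scaling (adjusted p = 0.171), where the call was lost, as it was with GC content and length trends removed (0.35, adjusted p = 0.124). It was also lost when nAAC replicate 4 (log2 FC 0.62, adjusted p = 0.0729), nAAC replicate 5 (0.68, adjusted p = 0.0597) or sham replicate 1 (0.69, adjusted p = 0.0582) was left out.

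The remaining 5 tested laminin chains did not pass the test. Lama4, the alpha chain of endothelial laminin, had a mean of 17.1 ± 3.74 FPKM in nAAC and 11.9 ± 3.17 in sham mice (log2 FC 0.50, limma adjusted p = 0.0691). The log2 FC was 0.24 after median-ratio scaling, and Lama4 passed only without sham replicate 2 (0.60, adjusted p = 0.0447) or by TPM (0.68, adjusted p = 0.023). Lamb1, the widely used beta chain, was at 22.7 ± 6.15 and 17.0 ± 3.19 (log2 FC 0.38, limma adjusted p = 0.140), and was 0.11 after median-ratio scaling and 0.55 by TPM, where it passed (adjusted p = 0.0464). Lama2, the alpha chain of the laminin around muscle fibers, ran from 9.51 to 22.8 in nAAC and from 7.03 to 17.5 in sham mice, with a log2 FC of 0.17 (limma adjusted p = 0.654). The ranges overlapped over most of their width, and the sign of the Lama2 difference turned after median-ratio scaling (-0.10) and without sham replicate 4 (-0.06). Lamb2, the beta chain of vessel wall and synaptic laminins, ran from 39.7 to 51.9 and from 30.1 to 52.4, with a log2 FC of 0.27 (limma adjusted p = 0.218) that was -0.01 after median-ratio scaling and 0.39 without sham replicate 5 (adjusted p = 0.0457). Lama5, found in mature vessels and epithelia, ran from 5.24 to 6.48 in nAAC and from 5.11 to 9.68 in sham mice and was the only laminin alpha chain with a lower mean in nAAC (log2 FC -0.15, limma adjusted p = 0.488). With GC content and length trends removed its log2 FC was -0.69 (adjusted p = 7.3e-05).

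**Figure D2:**
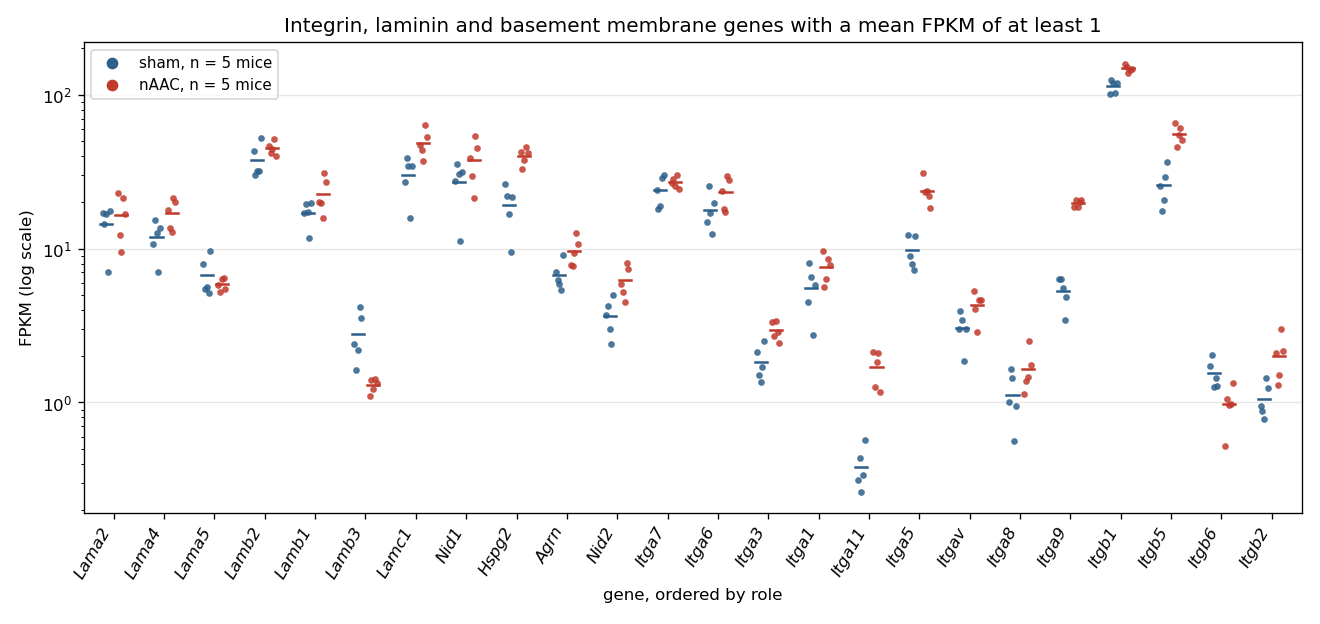
FPKM of the 24 tested members on a log scale (y axis), by gene in order of role (x axis). Each dot is 1 mouse (blue sham, red nAAC, n = 5 each) and each line is the group mean. Itga9, Itga5, Hspg2, Itgb5, Itga11 and Itgb1 have all nAAC dots above all sham dots, and Lamb3 has them below.

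All 4 nidogen and proteoglycan genes passed the filter, and 3 of them rose. Perlecan (Hspg2, chr4:137468769-137570630) is a large heparan sulfate proteoglycan that holds growth factors in the basement membrane. It was at 42.7, 33.0, 37.4, 46.0 and 42.0 FPKM in nAAC and at 26.4, 22.0, 16.9, 9.54 and 21.8 in sham mice. The groups did not overlap, and sham replicate 4 was again the lowest. The log2 FC was 1.08 ± 0.22 (SE; limma adjusted p = 0.00254). It was 0.86 without sham replicate 4 (adjusted p = 0.000672), 0.81 after median-ratio scaling (adjusted p = 0.0193) and 0.50 with GC content and length trends removed (adjusted p = 0.0123), each below the DEG threshold of 1.

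Nid2, a nidogen that links laminin to collagen IV, was at 5.87, 5.19, 4.51, 8.09 and 7.42 FPKM in nAAC and at 3.71, 4.25, 3.01, 2.40 and 4.96 in sham mice. Its groups overlapped only through nAAC replicate 3 and sham replicate 5. Its log2 FC was 0.63 ± 0.18 (SE; limma adjusted p = 0.0159), 0.40 after median-ratio scaling (adjusted p = 0.0864) and 0.24 with GC content and length trends removed (adjusted p = 0.195). The annotation places 437 exon bases of Nid2 on top of Rtraf on the opposite strand, which had a mean FPKM of 38.2 in nAAC and 44.9 in sham mice. Its paralog Nid1 varied more between mice, at 38.8, 29.7, 21.2, 53.7 and 44.9 in nAAC and 27.6, 35.7, 30.6, 11.2 and 31.4 in sham mice, with a log2 FC of 0.48 ± 0.30 that did not pass (limma adjusted p = 0.244). Agrin, which binds laminin and dystroglycan, had 9.67 ± 2.12 in nAAC and 6.72 ± 1.45 in sham mice. Its log2 FC of 0.46 passed (limma adjusted p = 0.0414) but did not after median-ratio scaling (0.21, adjusted p = 0.275) or with GC content and length trends removed (0.01, adjusted p = 0.936). The call was also lost on leaving out any of nAAC replicates 3 to 5 or sham replicates 1 to 4, where the log2 FC was 0.37 to 0.49 and the adjusted p 0.0642 to 0.108.

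Among the integrin alpha chains, Itga9 had the largest log2 FC of the tested members on the FPKM + 1 scale, while by the ratio of means Lamc3 and Itga11 stood above it (6.89 and 4.44 against 3.73). The chain it encodes pairs with the beta chain of Itgb1 and binds tenascin C, osteopontin and the extra domain A form of fibronectin. Its FPKM was 18.7, 20.7, 18.7, 20.1 and 20.6 in nAAC and 6.35, 6.31, 5.56, 3.45 and 4.83 in sham mice. The nAAC mice lay within a narrow band, far above all sham mice. Its log2 FC was 1.74 ± 0.14 (SE; limma adjusted p = 1.77e-06), 1.62 without sham replicate 4, 1.49 after median-ratio scaling and 1.41 with GC content and length trends removed, a DEG each time. Itga9 lies at chr9:118606690-118901003 and holds the pseudogene Gm10157 on the opposite strand, at a mean of 10.01 FPKM in nAAC and 9.69 in sham mice.

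Itga5 encodes the classic fibronectin receptor chain, one of the alpha chains that read the Arg-Gly-Asp (RGD) motif. It stood at 31.2, 23.2, 23.8, 21.9 and 18.4 FPKM in nAAC and at 12.3, 8.99, 7.99, 7.28 and 12.1 in sham mice. The lowest nAAC mouse was above the highest sham mouse. In limma the log2 FC was 1.21 ± 0.17 (SE; limma adjusted p = 0.000176), 0.95 after median-ratio scaling (adjusted p = 0.00176) and 0.76 with GC content and length trends removed (adjusted p = 0.00323), the last 2 under the DEG threshold. Of the other RGD-binding chains, Itgav was at 4.29 ± 0.918 in nAAC and 3.04 ± 0.765 in sham mice (log2 FC 0.39, limma adjusted p = 0.0850). It was 0.17 after median-ratio scaling, and passed without nAAC replicate 3 (0.50, adjusted p = 0.0328) or by TPM (0.57, adjusted p = 0.0243). Itga8, a chain of mesenchymal cells, was at 1.65 ± 0.533 and 1.12 ± 0.431 (log2 FC 0.32, limma adjusted p = 0.153), and 0.15 after median-ratio scaling. The groups of both overlapped.

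Itga11, a collagen receptor chain known from fibroblasts, was low in sham LV and met the filter only through its nAAC level. Its FPKM was 2.14, 1.26, 1.84, 2.10 and 1.17 in nAAC and 0.313, 0.434, 0.263, 0.336 and 0.569 in sham mice, so that the group means differed 4.44 times without overlap. The log2 FC on the FPKM + 1 scale was 0.95 ± 0.13 (SE; limma adjusted p = 0.000147), which understates the change of so low a gene, 1.89 with a pseudocount of 0.1, and 0.54 on the FPKM + 1 scale with GC content and length trends removed (adjusted p = 0.00512). Itga1, the collagen-binding chain with the highest FPKM, was at 7.59 ± 1.63 in nAAC and 5.53 ± 2.01 in sham mice and did not pass (log2 FC 0.44, limma adjusted p = 0.138). It was 0.25 without sham replicate 4 and 0.19 after median-ratio scaling, and passed by TPM (0.62, adjusted p = 0.0464). It shares 6532 exon bases with the read-through gene model Gm49395 on the same strand, so its level is uncertain.

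The 3 laminin-binding alpha chains moved less than Itga9, Itga5 and Itga11. Itga7, the laminin receptor chain of mature cardiomyocytes and skeletal muscle, was at 26.6, 28.3, 25.6, 30.1 and 24.6 FPKM in nAAC and at 24.2, 18.1, 18.9, 28.7 and 30.3 in sham mice. All nAAC mice lay within the range of the sham mice, and the log2 FC of 0.19 (limma adjusted p = 0.357) turned to -0.08 after median-ratio scaling. Itga6, carried by endothelial cells among others, was at 23.4 ± 5.69 and 17.9 ± 5.07 (log2 FC 0.37, limma adjusted p = 0.172), and 0.11 after median-ratio scaling. Itga3 rose from a lower level, 2.95 ± 0.414 against 1.84 ± 0.470 (log2 FC 0.49, limma adjusted p = 0.0124), and this call was lost after median-ratio scaling (log2 FC 0.30, adjusted p = 0.107) and with GC content and length trends removed (0.03, adjusted p = 0.865).

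Among the integrin beta chains, Itgb5 pairs with the product of Itgav, binds vitronectin and can activate latent transforming growth factor beta. Its FPKM was 65.2, 45.8, 54.8, 61.0 and 50.6 in nAAC and 25.5, 17.7, 20.8, 29.1 and 36.4 in sham mice. No sham mouse reached the lowest nAAC mouse. The log2 FC was 1.10 ± 0.18 (SE; limma adjusted p = 0.000602), 1.15 without sham replicate 4, 0.83 after median-ratio scaling (adjusted p = 0.00165) and 0.68 with GC content and length trends removed (adjusted p = 0.000896). Its known partner Itgav was also higher but did not pass (log2 FC 0.39, limma adjusted p = 0.0850). The ratio of Itgb5 to Itgav was not tested.

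Itgb1, the common partner of many alpha chains and the most abundant member, was at 159, 152, 138, 145 and 147 FPKM in nAAC and at 101, 124, 119, 103 and 120 in sham mice. The groups did not overlap. Its log2 FC of 0.39 ± 0.12 (SE; limma adjusted p = 0.0242) was only a little above the median of all genes, and after median-ratio scaling it was 0.11 (adjusted p = 0.587). The call was also lost, at an adjusted p of 0.0502 to 0.0642 and a log2 FC of 0.35 to 0.39, on leaving out nAAC replicate 1, 2, 4 or 5 or sham replicate 1. Itgb6, an epithelial partner of Itgav, had 0.971 ± 0.294 in nAAC and 1.55 ± 0.326 in sham mice (log2 FC -0.38, limma adjusted p = 0.0455), with overlap between nAAC replicate 5 and the lower sham mice. On leaving out any of nAAC replicates 1 to 4 or sham replicates 1 and 2 it no longer passed (log2 FC -0.40 to -0.29, adjusted p 0.0627 to 0.108).

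Itgb2 is the beta chain that leukocyte integrins share. It was at 2.10, 1.30, 1.51, 2.99 and 2.15 FPKM in nAAC and at 0.946, 0.883, 0.779, 1.43 and 1.24 in sham mice, with overlap between nAAC replicate 2 and sham replicate 4. The log2 FC was 0.53 ± 0.15 (SE; limma adjusted p = 0.0188), 0.37 after median-ratio scaling (adjusted p = 0.0602) and 0.20 with GC content and length trends removed (adjusted p = 0.247). Of 11 tested leukocyte markers 6 rose, against 27.1% of all genes, and 3 after median-ratio scaling, and their summed FPKM over the 12 listed was 102 to 199 in nAAC and 53.6 to 112 in sham mice. None of the 12 was at 0 in all libraries. The part of leukocyte number in the Itgb2 value was not tested.

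The 16 members below a mean FPKM of 1 included all 5 leukocyte integrin alpha chains, and no value among them exceeded 1.98. The mean was higher in nAAC for 15 of the 16. The groups were separated, with nAAC mice on top, for 6, namely Itgb3, Itgb4, Itga10, Itgae, Lama3 and Lamc3, where 4.48% of the 17442 genes of this low range did so. That range takes in every gene with a mean FPKM above 0 and below 1, so its share is not matched to the level of the members. Itgb3, whose product pairs with that of Itgav or, in platelets, of Itga2b, was at 1.05, 0.910, 0.805, 1.20 and 0.932 in nAAC and at 0.468, 0.274, 0.410, 0.263 and 0.294 in sham mice. Without a filter on low values it rose (limma adjusted p = 0.00106), while Itga2b did not (adjusted p = 0.301). Only 1 of 8 platelet and megakaryocyte markers reached a mean FPKM of 1, and it did not pass the test (14.4 to 26.1 summed in nAAC and 11.9 to 21.3 in sham mice). Lamc3 was at 0.808, 0.473, 0.453, 0.595 and 0.322 in nAAC and at 0.117, 0.0725, 0.0348, 0.110 and 0.0502 in sham mice, the largest ratio of means among all members at 6.89 (limma adjusted p = 0.00200 without a filter). Itgam, the alpha chain of macrophages and neutrophils, was above 1.4 in nAAC replicates 1, 4 and 5 and at 0.501 and 0.639 in the other two, against 0.275 to 0.532 in sham mice (limma adjusted p = 0.0558 without a filter). The remaining 9, which were Itga2, Itga2b, Itga4, Itgad, Itgal, Itgax, Itgb7, Itgb8 and Lama1, had group means between 0.00191 and 0.481 with overlapping groups. Itgad shares 137 exon bases with the highly expressed Cox6a2 on the opposite strand.

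**Figure D3:**
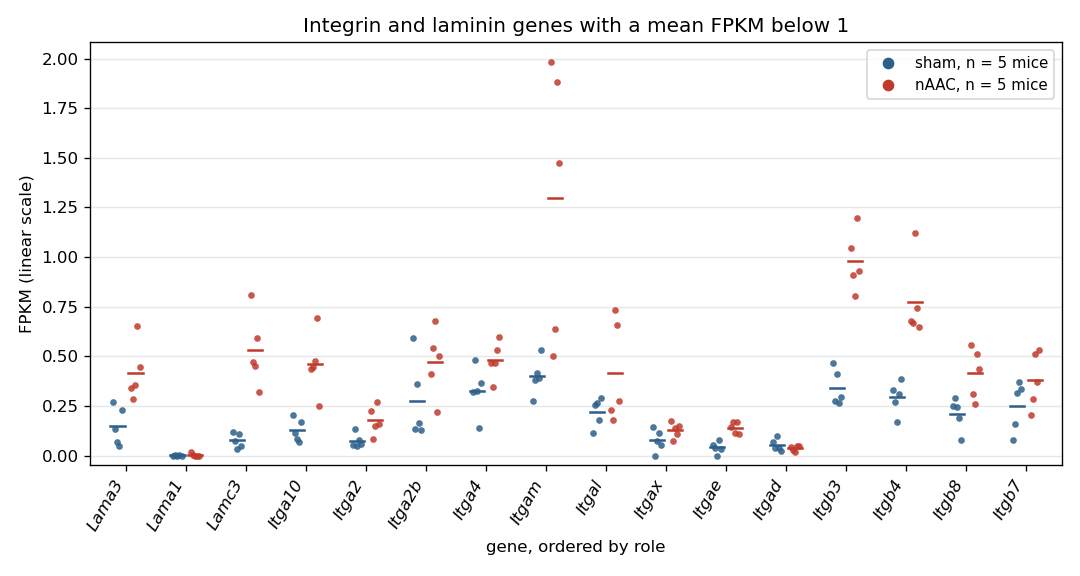
FPKM of the 16 members below a mean of 1 on a linear scale (y axis), by gene (x axis). Dots are mice (blue sham, red nAAC, n = 5 each) and lines are group means. Itgb3, Itgb4, Itga10, Itgae, Lama3 and Lamc3 have all red dots above all blue dots, and Itgam is split within nAAC.

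Shifts between chains of the same kind were measured as the log2 ratio of the FPKM of 2 genes within 1 mouse, which does not depend on the scaling between libraries. Of 12 ratios chosen, 11 had both genes at a mean FPKM of at least 1, and 5 of these differed between groups at an adjusted p below 0.05 (two-sided exact permutation test, adjusted over the 11, of which the Itga11 pair entered only through the nAAC level of Itga11; the smallest p that 5 against 5 mice can give is 0.00794). All 5 kept their direction when the deposited coverage replaced FPKM. The ratios were chosen with earlier results of these data known, so their p-values are given as a description.

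Among collagen receptors, the ratio of Itga11 to Itga1 was 0.222, 0.225, 0.289, 0.246 and 0.150 in nAAC and 0.0693, 0.0540, 0.0404, 0.123 and 0.0977 in sham mice. The ratio was higher in every nAAC mouse, by 1.64 ± 0.33 on the log2 scale (SE), and by 0.52 with FPKM + 1, where it did not pass. It is given as a description, since Itga11 met the filter only through its nAAC level. Among beta chains, Itgb5 to Itgb1 was higher in nAAC by 0.75 ± 0.23 (exact permutation adjusted p = 0.0349), with overlap of single mice, and did not pass with FPKM + 1 (0.72, adjusted p = 0.0582). Against Itga7, the muscle laminin receptor, Itga5 was higher by 1.10 ± 0.22 and Itga3 by 0.51 ± 0.15 (both exact permutation adjusted p = 0.0291), each without overlap between groups. With FPKM + 1 the Itga3 ratio did not pass (0.30, adjusted p = 0.0873). The ratio of Itga6 to Itga7 did not differ beyond its spread (0.19 ± 0.33, exact permutation adjusted p = 0.571). With 4 nAAC mice left, the ratios of Itga5 (1.07) and Itga3 (0.44) to Itga7 were at an adjusted p of 0.0582 without replicate 3. The Itgb5 ratio was at an adjusted p of 0.0524 to 0.0873 (0.66 to 0.77) without nAAC replicate 1, 3, 4 or 5 or sham replicate 3.

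Agrin relative to perlecan was lower in nAAC, by a log2 difference of -0.61 ± 0.22 (exact permutation adjusted p = 0.0349). It no longer passed with GC content and length trends removed (-0.47, adjusted p = 0.0728), or on leaving out sham replicate 4 (-0.45, adjusted p = 0.0524) or any nAAC mouse (-0.66 to -0.51, adjusted p 0.0655 to 0.102). For the laminin alpha chains, Lama5 to Lama4 had a log2 difference of -0.71 ± 0.26, which missed the threshold after adjustment (exact permutation p = 0.0476, adjusted p = 0.0873), and passed it without sham replicate 2 (-0.88, adjusted p = 0.0437). The ratios of Lama4 to Lama2 (0.36 ± 0.19, adjusted p = 0.150), Lama5 to Lama2 (-0.34 ± 0.31, adjusted p = 0.369), Lamb1 to Lamb2 (0.12 ± 0.23, adjusted p = 0.571) and Nid2 to Nid1 (0.28 ± 0.21, adjusted p = 0.327) did not pass the exact permutation test. With GC content and length trends removed, Lama5 to Lama4 passed (-0.96, adjusted p = 0.0349).

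**Figure D4:**
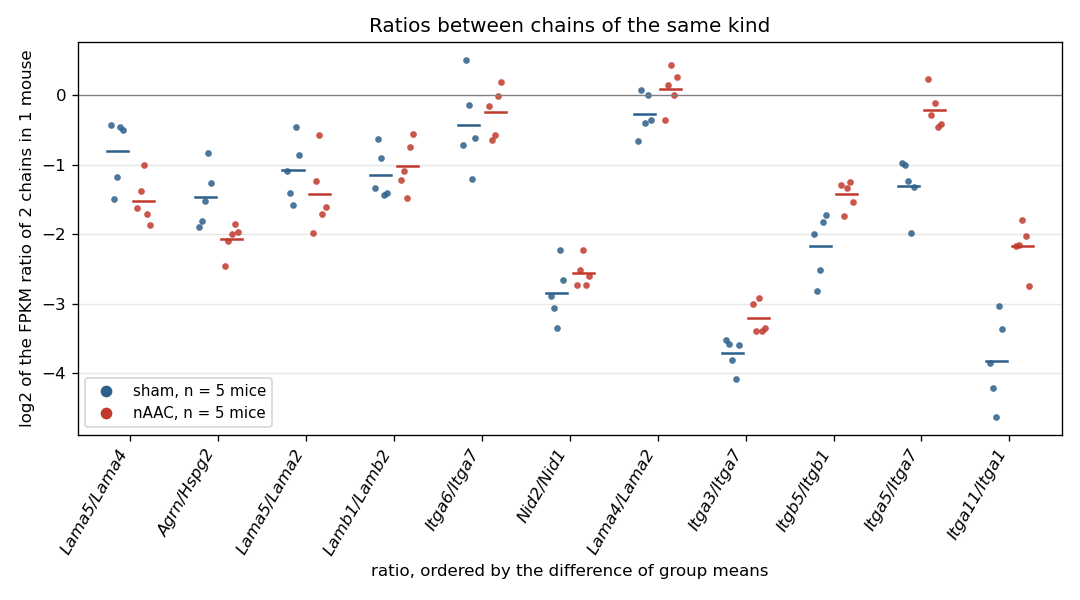
Log2 ratio of the FPKM of 2 chains in the same mouse (y axis) for the 11 tested ratios (x axis), ordered by the difference of group means. Dots are mice (blue sham, red nAAC, n = 5 each) and lines are group means. Itga11/Itga1, Itga5/Itga7 and Itga3/Itga7 have all red dots above all blue dots.

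As shares of each kind, Itga9 made up 17.2% ± 1.81 (SD, n = 5) of the summed integrin alpha FPKM in nAAC and 7.53% ± 1.57 in sham mice, Itga5 20.5% ± 3.65 and 13.7% ± 2.42, and Itga7 23.5% ± 2.10 and 34.4% ± 8.95. Shares between genes depend on the deposited column, since FPKM stood at more than 3 times the depth-scaled coverage for 7 of the tested members and at no more than 2.26 times for the other 17. The clearest case is Lama2, which made up 40.5% of the laminin alpha sum in nAAC by FPKM and 6.16% by coverage. By coverage the Itga9 share was 3.69% in nAAC and 1.69% in sham mice, so its level against other chains is uncertain while the direction between groups was the same. Between mice this ratio ran from 10.6 to 10.7 for Itga9 and from 16.6 to 24.3 for Lama2. With coverage as the measured value 10 of the 24 members rose, against 27.0% of all genes, and 2 fell, against 553 of 11867 genes.

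In single mice many members stood high or low together. In nAAC, replicate 4 was the highest mouse for 14 of the 24 tested members and the lowest for 0, and in sham mice replicate 5 was the highest for 10 and replicate 4 the lowest for 15. The same counts over all genes were not made. On the log2(FPKM + 1) scale, the median deviation from the other mice of the group was 0.26 for members and 0.15 for all genes tested in nAAC replicate 4. It was 0.30 and 0.19 in sham replicate 5, and -0.48 and 0.07 in sham replicate 4. The part of library scaling in these counts was not tested. Summed over the 40 members, the share of total FPKM was 0.0800% to 0.114% in nAAC and 0.0444% to 0.0726% in sham mice.

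Genes that work with the members were read from the same fit. These lists were also chosen with earlier results of these data known, so their counts are a description. Among the genes counted as rising, Spp1, Col4a3, Col4a4 and Src met the filter only through their nAAC level. Their sham means were 0.323, 0.603, 0.845 and 0.808 FPKM. Of 28 tested focal adhesion partners, the adaptor and signaling proteins on the inner side of integrins, 19 rose and 0 fell, where 27.1% of all genes rose and 4.6% fell, with a median log2 FC of 0.56, and after median-ratio scaling 13 rose and 1 fell. The largest were the actin crosslinker Actn1 (log2 FC 1.43 ± 0.14, limma adjusted p = 1.01e-05), the tension-sensitive adaptor Zyx (1.19 ± 0.14, adjusted p = 4.56e-05) and the filamin Flna (1.11 ± 0.14, adjusted p = 6.22e-05). Of 20 tested integrin ligands and latent transforming growth factor partners, 16 rose and 0 fell, with a median log2 FC of 1.39, and after median-ratio scaling 15 rose and 2 fell, the latter Vtn and Ltbp1 (log2 FC -0.50 and -0.64, limma adjusted p = 0.0380 and 0.00470), named after their values were seen. The matricellular genes Ccn2 and Postn led with 183 to 451 and 90.6 to 261 FPKM in nAAC against 15.6 to 23.9 and 6.34 to 17.0 in sham mice, and Col1a1 followed with a log2 FC of 2.09 ± 0.15 (limma adjusted p = 7.89e-07). Of 26 other tested basement membrane and laminin-binding genes, 14 rose and 1 fell, with a median of 0.48, and after median-ratio scaling 10 rose and 3 fell. Col15a1, a basement membrane collagen around vessels and muscle, rose by 1.98 ± 0.21 (limma adjusted p = 1.5e-05), Fbln2 by 1.51 ± 0.14 (adjusted p = 6.45e-06) and Col4a2, a chain of the collagen IV network, by 1.37 ± 0.17 (adjusted p = 7.47e-05).

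Marker genes of cell types were read against the same 27.1% of all genes that rose. Of 12 fibroblast markers 8 rose, with a summed FPKM of 1131 to 1760 in nAAC and 746 to 978 in sham mice, of 10 mural cell markers 7 rose (292 to 409 and 197 to 336), and of 12 endothelial markers 3 rose (324 to 504 and 284 to 403), a share near that of all genes. After median-ratio scaling 6 fibroblast, 5 mural and 0 endothelial markers rose, where 13.2% of all genes did. Among 6 tested mesothelial and epicardial markers 1 rose (9.03 to 28.8 and 7.09 to 12.6), and among 3 tested glial markers 0 passed (4.56 to 6.42 and 3.02 to 5.76). The mesothelial marker that rose, Krt8, met the filter only through its nAAC level (mean FPKM 2.08 in nAAC and 0.257 in sham mice). So did the mural marker Cnn1, which also rose (3.21 and 0.881). T cell markers all lay below a mean FPKM of 1 (0.993 to 2.25 and 0.796 to 1.58 summed). Of 12 cardiomyocyte markers 3 rose and 2 fell. Of 5 tested atrial markers 1 rose and 1 fell (6324 to 11737 and 99.3 to 208), the first being Nppa, which pressure-loaded ventricles also make. Myl4, Myl7 and Sln did not pass and varied widely between mice. Myl4 ran from 1.34 to 128 FPKM in nAAC and 1.82 to 17.8 in sham mice, and Myl7 from 0.654 to 79.8 and 1.16 to 22.3. Sln ran from 0 to 19.4 and from 0.0770 to 4.62. The share of atrial tissue in each sample was not tested. None of these markers was at 0 in all libraries, and Col1a1 and Col3a1 stand in both the ligand and the fibroblast list. The part of each cell type in the member values was not tested.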

How the data were processed

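RNA of the LV of 5 nAAC and 5 sham mice was sequenced, 1 library per mouse, and mice were grouped by the operation named in the labels. The authors deposited 1 gene table per mouse in the layout of StringTie's gene abundance output, holding for every gene its coverage, FPKM and TPM (build mm10 per the submitters' processing notes). The aligner, quantifier, annotation and use of strand are not given in the sources used here, and the library kit named in the labels carries no strand option in its name. The deposited coverage is the read depth per base, the deposited FPKM is normalized by the authors for length and depth, and the deposited TPM rescales FPKM within a library. Read counts were not recovered, so no count model was used.

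Rows sharing a gene ID (7 to 12 per table) were summed. For 11867 genes whose FPKM averaged 1 or more, log2(FPKM + 1) was tested with limma 3.58.1 in R 4.3.3 (empirical Bayes with trend, Benjamini-Hochberg over all genes). Fold changes on this scale understate the change of low genes. DEGs also had to exceed 1 in absolute log2 FC, at an adjusted p below 0.05. Ratios of 2 chains per mouse were tested by two-sided exact permutation. One gene that the symbol rule also matches is not reported here. Every other member is accounted for, those with a mean FPKM of at least 1 by role. Of other lists at most the 3 largest called genes are named, apart from genes named after their values were seen or to state a limit. The members, lists and ratios were chosen with earlier results of these data known. Depth was estimated by the mode of FPKM over coverage and limits mainly the members below an FPKM of 1. Coordinates, lengths and overlaps came from GENCODE M21, where all 40 members matched, and promoters from RefSeq on GRCm38.p6. The fit was tested on simulated data. The alternatives were other scalings, TPM, coverage, no filter, a pseudocount of 0.1, removal of GC content and length trends, a replicate block, Xist as a covariate, a test against a log2 FC of 0.5 and leaving out each mouse. Coverage for the counts of members was added after the data were seen. Python 3.11.15, pandas 2.3.3 and matplotlib 3.10.9 were used.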

Additional observations from a re-analysis of the deposited data

Results flagged for a closer look

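In sham mice, replicate 4 lay apart from the others for 2 members. Its gap to the next mouse, on the log2(FPKM + 1) scale, was 0.783 of the range of the sham group for Lama2 and 0.775 for Nid1, both at the low end and above the critical value of 0.71 for 5 samples. Such gaps were examined in 70 groups, and chance gives about 1 in 20, or 3.5 here. The Lama2 log2 FC was 0.17 with this mouse and -0.06 without it, and that of Nid1 was 0.48 and 0.20, neither of which passed the test.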

How the results depend on the processing

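Itga9 and Itga5 were past an adjusted p of 0.05 in all 21 fits, and Itgb5, Hspg2 and Lamb3 in all but the test against a log2 FC of 0.5. Itga11 was past it in the 18 fits that tested it. It met the filter only through its nAAC level, and fell below it without nAAC replicate 1, 3 or 4. The count of members that rose was 11 of 24 as deposited, where 27.1% of all genes rose. It was 5 with median-ratio scaling (13.2% of all genes), upper-quartile scaling (13.7%) or Xist as a covariate (13.4%). With GC content and length trends removed it was 6 (14.2%). By TPM it was 17 of 26 (40.9%), and in the test against a log2 FC of 0.5 it was 3 (4.68%). On leaving out a mouse it ran from 7 of 23 without nAAC replicate 4 (19.9%) to 12 of 24 without sham replicate 5 (31.0%). The count that fell was 2, but 1 by TPM, without a filter, with a pseudocount of 0.1, with Xist or with the replicate block, 3 with trends removed, 0 in the test against 0.5, and 1 to 2 on leaving out a mouse. DEGs up were 4, and 1 with either scaling or with trends removed, 2 in the test against 0.5, and DEGs down 0, and 1 with trends removed. Of all genes, 3211 rose and 546 fell. The rising count was 1563 with median-ratio and 1620 with upper-quartile scaling, 5304 by TPM, 1683 with trends removed, 1593 with Xist and 555 in the test against 0.5, and the falling count 1431, 1359, 1883 with trends removed and 97 in that test. The cause of these moves was not tested.

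Signs turned only for members that did not pass, namely Lama5 by TPM (0.0022), Lama2 with median-ratio (-0.10) and upper-quartile scaling (-0.085), with trends removed (-0.11) and on leaving out a mouse (-0.057 without sham replicate 4 to 0.33), Itga7 (-0.079, -0.066 and -0.26 in the first 3 of these) and Lamb2 with median-ratio scaling (-0.0066) and with trends removed (-0.19). Among the ratios, Lama5 to Lama4 passed with trends removed (-0.96), Agrn to Hspg2 no longer did (-0.47), and with FPKM + 1 the ratios Itga3 to Itga7 (0.30), Itga11 to Itga1 (0.52) and Itgb5 to Itgb1 (0.72) did not. On leaving out a mouse the ratios ran from -0.88 to -0.61 for Lama5 to Lama4, -0.71 to -0.45 for Agrn to Hspg2, 0.93 to 1.18 for Itga5 to Itga7, 0.42 to 0.56 for Itga3 to Itga7, 1.44 to 1.84 for Itga11 to Itga1 and 0.59 to 0.86 for Itgb5 to Itgb1. Replicate numbers do not pair the mice (correlation of same-numbered mice -0.32 to 0.19). With a replicate block 9 members rose, against 24.7% of all genes, and 1 fell, against 497 of 11867 genes. Depth limits the members below an FPKM of 1, and levels between genes depend on the deposited column.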
